A study of Oryza sativa with 4 samples.

Results

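The JAZ/TIFY jasmonate repressors are a family of rice proteins that hold back the response to the hormone jasmonate, and 10 of their genes were examined: TIFY11a, TIFY11b, TIFY11c, TIFY11d, TIFY9, TIFY10a, TIFY10b, TIFY10c, TIFY6a and TIFY6b. They were chosen by locus identifier from the MSU rice annotation, among the 52795 loci with a probe on the array, and all 10 had a probe (13 probes in all). The samples were whole seedlings, 14 days old, of the japonica rice cultivar Nipponbare grown in soil in a greenhouse. The groups were the untransformed wild type (n = 2 arrays) and transgenic line 40, made in the same cultivar to overexpress LOC_Os02g43330 (n = 2 arrays). LOC_Os02g43330 is HOX24, a class I homeodomain-leucine zipper transcription factor gene. Line 40 was the only transgenic line, and the promoter that drives the transgene is not given in the sources used here. The design text calls the arrays biological replicates, and p-values measure the spread between these arrays alone.

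Jasmonate is made in plastids and peroxisomes from membrane fatty acids, and its active form is the conjugate with isoleucine. In its absence the TIFY repressors bind MYC-type bHLH transcription factors and recruit co-repressors of the TOPLESS type. The active conjugate joins a repressor to the F-box receptor COI1, which marks the repressor for destruction and frees the transcription factors. In rice and Arabidopsis several of these repressor genes are themselves induced by jasmonate, by wounding and by some abiotic stresses.

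None of the 9 repressor genes that could be tested passed the threshold in line 40. TIFY11a and TIFY9 had the largest differences, 2.16-fold and 2.15-fold higher in line 40, with adjusted p of 0.0690 and 0.0794. The other 7 tested repressors lay between -0.15 and 0.54 on the log2 scale. TIFY11c was not well above background on any array and was not tested. Signals below are the spot brightness after the scanner software's background subtraction. Normalized levels are log2 of that signal minus log2 of the array's 75th percentile, so that 0 is the 75th percentile of all probes. A difference is line 40 minus wild type on that log2 scale, with limma's moderated standard error (SE), and adjusted p-values are Benjamini-Hochberg values over 36902 tested loci with a threshold of 0.05.

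The overexpressed gene bore out the labels: HOX24 lay at processed signals of 1449 and 2116 in the wild type and 229115 and 280179 in line 40 (147-fold higher, limma adjusted p = 0.00105). Over all tested loci 343 rose, or 0.929%, and 423 fell, or 1.15%. Of all calls 44.8% were higher in line 40, against 69.5% after normexp background correction and 61.2% after quantile normalization. The share was 65.9% with loci well above background on all 4 arrays, 65.2% without the filter on dim probes, 18.5% without wild type replicate 1 and 16.8% without wild type replicate 2. The 75th percentile of the processed signal was 367 and 488 in the wild type and 404 and 431 in line 40. Markers of both organs of a seedling were well above background on all arrays, 7 of 7 for leaf and 9 of 9 for root. Their summed signal, in multiples of the 75th percentile, was 2743 and 2386 in the wild type and 3012 and 3096 in line 40 for leaf. RCA and CAB2R, by far the brightest leaf markers, made up most of that sum. They differed by 0.09 and 0.18 (limma adjusted p = 0.762 and 0.515). By limma 3 of the 7 leaf markers rose, RBCS (2.71-fold), LHCB (2.60-fold) and PSBO (2.17-fold), and 0 fell. For root the summed signal was 134 and 156 in the wild type and 220 and 207 in line 40, with RCC3 the brightest of the 9. None of the root markers passed, 4 lay above 0 and 5 below, and their median difference was -0.10. AMT1-2 lay at -1.36 (limma adjusted p = 0.0552), against 1.19 for PIP2-3 and 1.14 for PIP2-5. Each sum rests largely on its brightest genes, so it is no measure of leaf or root content by itself. Both sums and the 3 leaf markers move with the group, and their part in the differences below was not tested. In whole seedlings a change in the number of cells of a type and a change in RNA per cell cannot be told apart.

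TIFY11a (LOC_Os03g08310), TIFY11c (LOC_Os03g08320) and TIFY11b (LOC_Os03g08330), of the TIFY11 genes, stand next to each other on chromosome 3, with 0 genes between neighbours in the RefSeq gene table. TIFY11a, known as JAZ9 and linked to salt tolerance in rice, gave signals of 55.8 and 89.5 in the wild type and 128 and 177 in line 40. Both line 40 arrays were above both wild type arrays. The normalized wild type level averaged -2.58 ± 0.19 (SD, n = 2), and the level of line 40 averaged -1.47 ± 0.27 (SD, n = 2). They differed by 1.11 (SE 0.20, 95% interval 0.59 to 1.64), or 2.16-fold. The limma adjusted p was 0.0690, and 0.0120 with median scaling, where the difference was 1.26. Median scaling moved the median of all loci by 0.15, and after normexp the difference of TIFY11a was 0.72 (adjusted p = 0.0609).

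TIFY11b, or JAZ10, known for an increase of grain size when overexpressed, lay beside TIFY11a without its difference. Its signals were 22.9 and 28.2 in the wild type and 18.5 and 27.6 in line 40, and the groups overlapped. The difference was -0.15 (SE 0.21, 95% interval -0.70 to 0.40, limma adjusted p = 0.698), and its sign turned after quantile normalization (0.13), after cyclic loess (0.16) and without line 40 replicate 1 (0.10). Within arrays the ratio of TIFY11a to TIFY11b was 2.39-fold higher in line 40, a quantity that does not depend on the scaling by 1 factor per array. The 2 line 40 arrays lay 1.31 and 1.20 (log2) above the wild type mean ratio and the wild type arrays 0.19 to either side of it. An exact two-sided permutation test gave p = 0.333, the smallest that 2 arrays against 2 can give, and 0.417 adjusted over 5 such ratios. The pairs were picked with earlier results known, and a test with that floor cannot decide whether a ratio changed.

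TIFY11c, or JAZ11, which lies between these neighbours, gave signals of 2.41 and 2.60 in the wild type and 2.59 and 2.60 in line 40. The lowest signal of any probe well above background was between 9.97 and 10.9 on these arrays. That level is only an approximate upper bound for TIFY11c, which was not tested. TIFY11d (LOC_Os10g25290, JAZ12) stands on chromosome 10, where the related gene TIFY11e lies near it with 3 genes between. Its signals were 138 and 239 in the wild type and 204 and 224 in line 40. On the normalized scale the groups did not overlap, but the gap between the wild type arrays (0.38) exceeded the difference of 0.26 (SE 0.19, 95% interval -0.22 to 0.74, limma adjusted p = 0.430). Without wild type replicate 1 that difference was 0.07. The ratio of TIFY11a to TIFY11d within arrays was 1.80-fold higher in line 40 (exact two-sided permutation p = 0.333). Probe sequences were not used here, so cross-hybridisation among these paralogs was not tested.

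**Figure D1:**
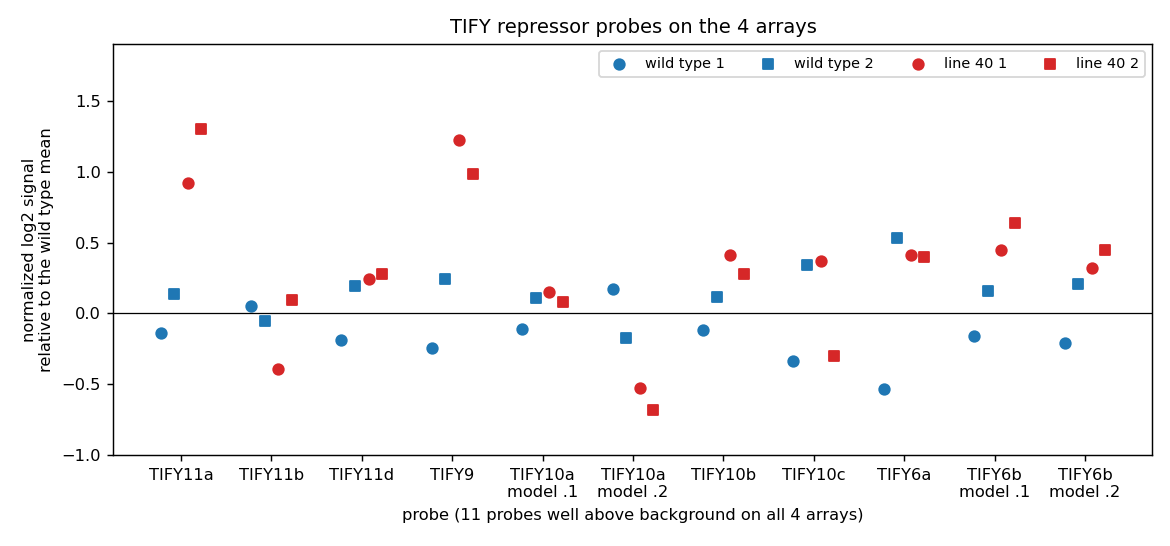
Each point is the normalized log2 signal of a TIFY repressor probe on 1 array, relative to the mean of the 2 wild type arrays (vertical axis, log2 units), for the 11 probes well above background on all 4 arrays (horizontal axis). The line 40 arrays stand clear above the wild type arrays for TIFY11a and TIFY9, the 2 probes of TIFY10a have differences of opposite sign, and the wild type arrays of TIFY6a lie 1.06 apart.

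TIFY9 (LOC_Os04g32480, JAZ5, on chromosome 4) showed a difference of nearly the same size as TIFY11a. Its signals were 40.0 and 74.8 in the wild type and 122 and 110 in line 40, with both line 40 arrays above both wild type arrays. The normalized wild type level averaged -2.95 ± 0.35 (SD, n = 2), and the level of line 40 averaged -1.85 ± 0.17 (SD, n = 2). The difference was 1.10 (SE 0.22, 95% interval 0.53 to 1.68), or 2.15-fold, with limma adjusted p = 0.0794. It was 0.86 without wild type replicate 1, which lay 0.49 below wild type replicate 2, and 0.64 after normexp (adjusted p = 0.0533). As for TIFY11a, the threshold was passed with median scaling alone among the alternatives run (1.25, adjusted p = 0.0181). The 95% intervals of TIFY9 and TIFY11a were the only ones among the repressors that lay wholly above 0.5.

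The TIFY10 genes held the brightest member. TIFY10b (LOC_Os07g42370, JAZ7, on chromosome 7) gave signals of 17338 and 27129 in the wild type and 27594 and 26796 in line 40. On the normalized scale the wild type arrays lay at 5.56 and 5.80 and the line 40 arrays at 6.09 and 5.96, so the groups did not overlap. The difference was 0.35 (SE 0.16, 95% interval -0.08 to 0.77, limma adjusted p = 0.266), and it fell to 0.0031 after quantile normalization and 0.12 after cyclic loess. The probe for its other transcript model was not well above background on any array, with signals from 2.89 to 10.4.

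TIFY10a (LOC_Os03g28940, JAZ6, on chromosome 3) was measured by probes for 2 transcript models, and their differences had opposite signs. The brighter probe, for model 1, gave signals of 1837 and 2842 in the wild type and 2418 and 2455 in line 40. Its difference was 0.11 (SE 0.16, 95% interval -0.29 to 0.52, limma adjusted p = 0.687), with overlapping groups. The probe for model 2 gave signals of 362 and 379 in the wild type and 246 and 235 in line 40, with both line 40 arrays below both wild type arrays. Tested as a row of its own, the model 2 probe lay at -0.60 (SE 0.18, limma adjusted p = 0.144 over 38880 probes). The ratio of model 1 to model 2 was 1.64-fold higher in line 40, by 0.67 and 0.76 (log2) on the 2 line 40 arrays against 0.28 to either side in the wild type (exact two-sided permutation p = 0.333, 0.417 adjusted over 5 ratios). With both probes averaged the locus lay at -0.24 (adjusted p = 0.356).

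TIFY10c (LOC_Os09g26780, JAZ8, on chromosome 9), a repressor known from the response of rice to bacterial blight, was dim and scattered. Its signals were 14.5 and 30.9 in the wild type and 26.2 and 17.6 in line 40. The groups overlapped, with gaps of 0.68 in the wild type and 0.67 in line 40 between arrays of 1 group. The difference of 0.04 (SE 0.33, limma adjusted p = 0.956) had a 95% interval from -0.82 to 0.90, the widest interval but that of TIFY6a. Its sign turned after normexp (-0.05), without wild type replicate 1 (-0.30) and without line 40 replicate 1 (-0.30).

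The TIFY6 genes, TIFY6a (LOC_Os08g33160, JAZ3, on chromosome 8) and TIFY6b (LOC_Os09g23660, JAZ4, on chromosome 9), were also dim. TIFY6b rested on probes for 2 transcript models that gave nearly the same values. The model 1 probe had signals of 14.8 and 24.5 in the wild type and 24.8 and 30.2 in line 40, and the model 2 probe had 14.7 and 26.2 in the wild type and 23.5 and 27.3 in line 40. On the normalized scale both probes had both line 40 arrays above both wild type arrays. The model 1 probe lay at 0.54 (SE 0.18, 95% interval 0.07 to 1.02, unadjusted p = 0.0319, limma adjusted p = 0.166) and the model 2 probe at 0.39 (SE 0.20, limma adjusted p = 0.294). TIFY6b lay at 0.10 after normexp, at 0.32 without line 40 replicate 2 and at 0.86 after cyclic loess.

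TIFY6a gave signals of 12.5 and 34.6 in the wild type and 26.4 and 27.9 in line 40. The line 40 arrays lay between the wild type arrays, which stood 1.06 apart, the widest gap among the repressors. The difference was 0.41 (SE 0.37, 95% interval -0.54 to 1.35, limma adjusted p = 0.528). Leaving out wild type replicate 1 put TIFY6a at -0.13, and leaving out wild type replicate 2 put it at 0.94 (adjusted p = 0.0666). The signal of 12.5 stood close to the lowest signal well above background on that array, 10.1.

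**Figure D2:**
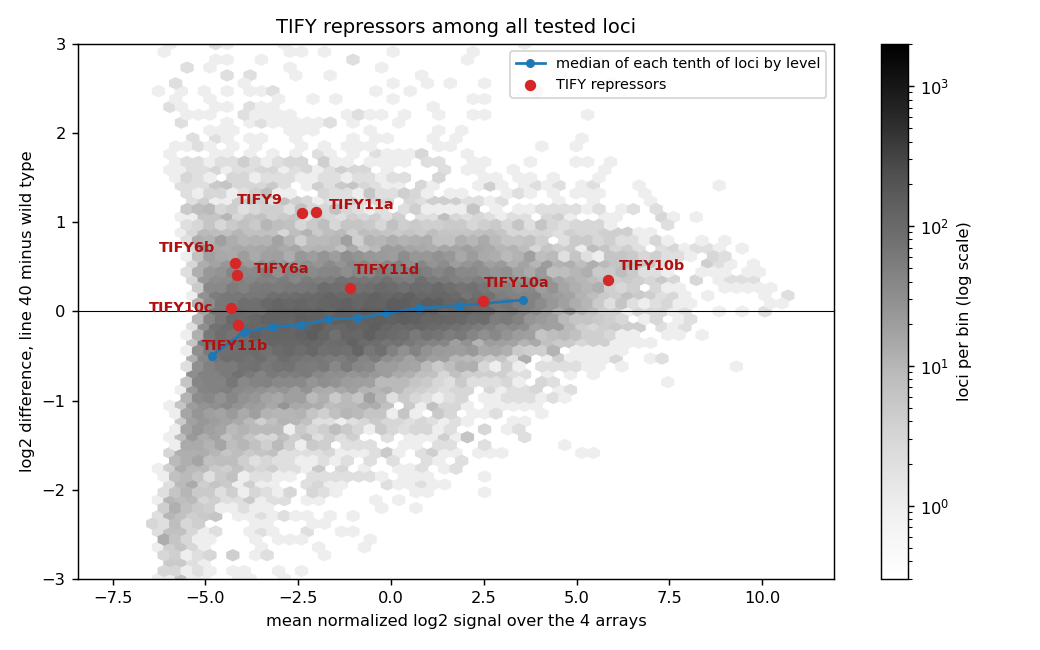
Grey bins show all tested loci by mean normalized log2 signal (horizontal axis) and log2 difference of line 40 minus wild type (vertical axis, drawn from -3 to 3, so that HOX24 at 7.20 lies outside). The blue line joins the medians of 10 equal classes of loci ordered by level, from -0.50 for the dimmest to 0.13 for the brightest. Red points are the 9 tested TIFY repressors, with TIFY9 and TIFY11a at the upper edge of the dense part.

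Differences depended on the level of a locus. The median difference was -0.24 in the class of loci by level (1 of 10 equal classes) that held TIFY11b, TIFY10c, TIFY6a and TIFY6b, and 0.13 in that of TIFY10b. It was -0.08 in the class of TIFY11a, so the ratio of TIFY11a to TIFY11b still carries part of this dependence. Set against the median of their own class, TIFY9 lay 1.26 higher, TIFY11a 1.20 higher, TIFY6b 0.78 higher and TIFY6a 0.64 higher. TIFY10a and TIFY11b lay 0.05 and 0.09 above the median of theirs.

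Across the family, 9 of 10 repressors were tested, and each of these was well above background on all 4 arrays. By limma 0 of 9 were called, where 2.08% of all tested loci were called in either direction, so the count does not set the family apart. At an unadjusted p under 0.05 there were 3 of 9 (TIFY11a, TIFY9 and TIFY6b, all higher in line 40), where 24.9% of all tested loci reached it in either direction. By the brightest probe of each locus the groups did not overlap for 5 of 9, all higher in line 40. The model 2 probe of TIFY10a, not counted here, had no overlap in the other direction. Of all tested loci 25.1% had no overlap with line 40 higher and 34.3% with it lower. The median of the 9 differences was 0.35, beside -0.06 over all tested loci, and 8 of 9 lay above 0, beside 43.7% of all loci. With the probes of a locus averaged the median was again 0.35, and 7 of 9 lay above 0. As a description, the median rested largely on wild type replicate 1: without that array it was 0.07, with 6 of 9 above 0. After normexp the median was 0.11, with 7 of 9 above 0. The offset of 50 added there exceeds the signals of TIFY11b, TIFY10c, TIFY6a and TIFY6b, which by itself draws their differences towards 0. Wild type replicate 2 exceeded replicate 1 for 8 of the 9 repressors, by a median of 0.32, beside 54.8% of all tested loci and a median of 0.04. For 4 of 9 repressors the gap between the wild type arrays was larger than the difference between the groups.

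**Figure D3:**
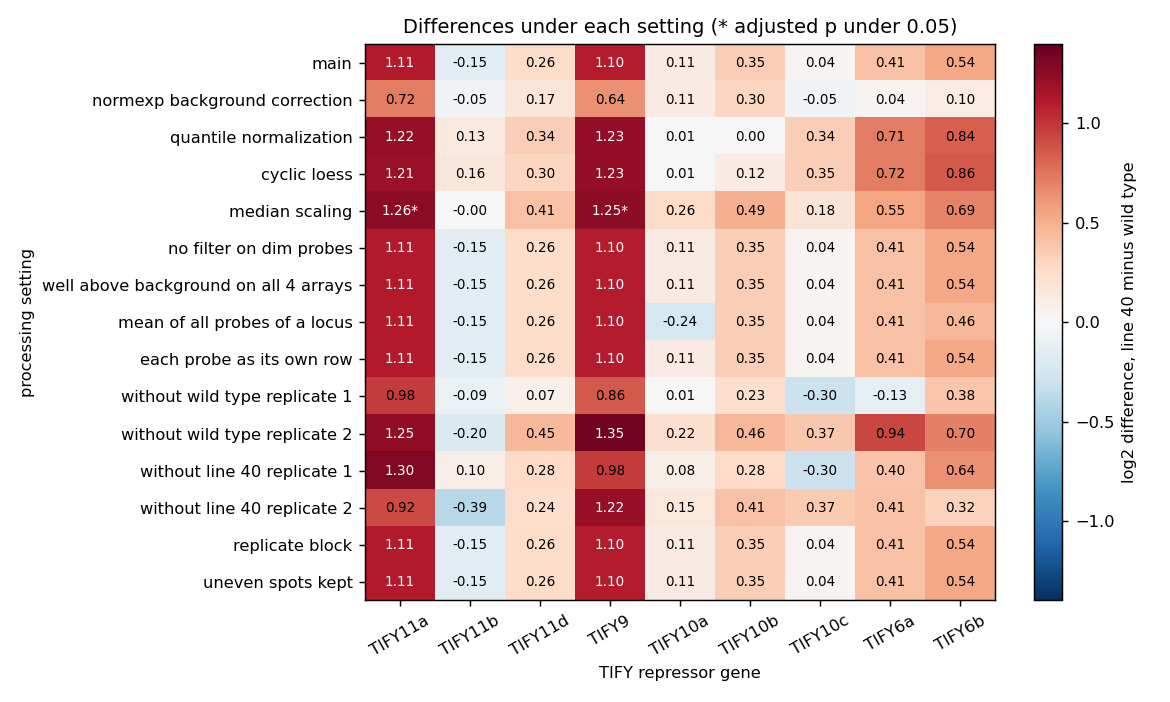
Each cell gives the log2 difference of line 40 minus wild type for 1 TIFY repressor (horizontal axis) under 1 processing setting (vertical axis), coloured by its value, with an asterisk where the adjusted p is under 0.05. TIFY11a (0.72 to 1.30) and TIFY9 (0.64 to 1.35) stay above 0 in every row, the asterisks stand in the row of median scaling alone (7.41% of all tested loci passed there), and TIFY10c and TIFY6a fall below 0 without wild type replicate 1.

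The rest of the jasmonate pathway was read from a list of 24 other loci, of which 23 were tested. By limma 0 of 23 passed, where 2.08% of all tested loci did. At an unadjusted p under 0.05, 5 lay higher and 2 lower, where 24.9% of all tested loci reached it in either direction. The 5 include the lipoxygenase gene HI-LOX, which was not well above background in the wild type, so its p-value cannot count as support. The median difference was -0.02, beside -0.06 over all tested loci. The groups did not overlap for 8 of the 23 that were higher and 9 that were lower in line 40, where 25.1% of all tested loci had no overlap with line 40 higher and 34.3% with it lower. These counts do not set the list apart.

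Among other TIFY genes, TIFY3 (LOC_Os04g55920), known as EG2 or JAZ1 for its part in spikelet development, was bright and differed little. Its signals were 8423 and 12825 in the wild type and 9076 and 11244 in line 40, a difference of -0.02 (SE 0.17, 95% interval -0.45 to 0.41, limma adjusted p = 0.952), or 0.13 with median scaling. TIFY11e (LOC_Os10g25230), the chromosome 10 neighbour of TIFY11d, gave 30.1 and 30.2 in the wild type and 21.6 and 20.7 in line 40. Its difference was -0.49 (SE 0.20, limma adjusted p = 0.212; -0.12 after normexp and -0.29 without wild type replicate 1), the opposite sign of TIFY11d, although that contrast between the neighbours was not tested. TIFY5 (LOC_Os07g05830) was not well above background on any array, with signals from 2.07 to 2.203.

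Jasmonate synthesis held the largest differences of the list. HI-LOX (LOC_Os08g39840), a plastid lipoxygenase gene at the start of the pathway, gave signals of 4.86 and 6.15 in the wild type, not well above background, and 13.2 and 30.9 in line 40. It was at least 1.96-fold higher in line 40 (limma adjusted p = 0.0801), but its log2 difference after normexp was 0.27. LOX9 (LOC_Os08g39850), its neighbour by identifier and another lipoxygenase gene, gave 384 and 764 in the wild type and 1060 and 1722 in line 40. That is a difference of 1.34 (SE 0.30, limma adjusted p = 0.0940), and 1.24 after normexp, where LOX9 passed (adjusted p = 0.0347). With median scaling LOX9 passed (adjusted p = 0.0134), and so did HI-LOX, again by its difference from dim wild type signals. Without line 40 replicate 1 the log2 difference of HI-LOX was 2.47. With the replicate block LOX9 passed as well (adjusted p = 0.0461). The probe for its other transcript model was not well above background on any array, with signals from 2.18 to 4.27. OPR1 (LOC_Os06g11290), an oxophytodienoate reductase gene, lay at 0.65 (SE 0.16, limma adjusted p = 0.109). Of the 10 synthesis loci, 7 lay above 0, OPR7 by 0.0063 only, and 3 below, beside 43.7% of all tested loci above 0. At an unadjusted p under 0.05, 5 lay higher and 1 lower, where 24.9% of all tested loci reached it in either direction. The higher loci were LOX9, OPR1, AOS2, AOC and HI-LOX, but the p-value of HI-LOX cannot count as support. The lower locus was JAR1 (LOC_Os05g50890), for the enzyme that forms the active conjugate, at -0.40 (SE 0.14, limma adjusted p = 0.173). None of the 10 passed, and no test was made of the group.

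None of the 3 receptor and 4 regulator genes passed. Of these, 2 lay above 0, COI2 and the co-repressor gene LOC_Os08g06480 (0.07), beside 43.7% of all tested loci. The receptor gene COI1b (LOC_Os05g37690) gave signals of 763 and 1089 in the wild type and 689 and 743 in line 40, a difference of -0.33 (SE 0.14, limma adjusted p = 0.241; -0.18 with median scaling). The receptor gene COI1a (LOC_Os01g63420) lay at -0.29 (SE 0.16, limma adjusted p = 0.314; -0.15 with median scaling) and COI2 (LOC_Os03g15880), the third receptor gene, at 0.14 (SE 0.15, limma adjusted p = 0.605; -0.09 without wild type replicate 1). For both COI1 genes the line 40 arrays were below both wild type arrays, as for 34.3% of all tested loci.

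The bHLH factor gene MYC2 (LOC_Os10g42430), the main partner of the repressors, lay at -0.20 (SE 0.16, 95% interval -0.61 to 0.20, limma adjusted p = 0.454). That of MYC2 was -0.06 with median scaling, -0.35 after cyclic loess and -0.10 without line 40 replicate 2. RERJ1 (LOC_Os04g23550), a jasmonate-responsive bHLH factor gene, lay at -0.18 (SE 0.15, limma adjusted p = 0.507) by its brighter probe, for model 2. The model 1 probe, as a row of its own, lay at 0.01 (limma adjusted p = 0.972), and both probes averaged gave -0.08. By whichever probe was brighter, the locus lay at 0.03 after cyclic loess and -0.07 without wild type replicate 1. bHLH148 (LOC_Os03g53020), another bHLH gene, lay at -0.13 (SE 0.25, adjusted p = 0.772), with a sign that turned after quantile normalization (0.13), cyclic loess (0.18) and median scaling (0.02).

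None of the 4 genes that respond to or act after jasmonate passed. Of these, 2 lay above 0 and 2 below, beside 43.7% of all tested loci above 0. JAMYB (LOC_Os11g45740), a jasmonate-inducible MYB gene, lay at 0.01 (limma adjusted p = 0.974). JIOsPR10 (LOC_Os03g18850), a jasmonate-inducible defence protein gene, gave signals of 318 and 474 in the wild type and 275 and 279 in line 40, a difference of -0.47 (SE 0.15, limma adjusted p = 0.158). LIS (LOC_Os02g02930), for linalool synthase, lay at 0.50 (SE 0.23, adjusted p = 0.252; 0.24 after normexp, 0.31 without wild type replicate 1 and 0.29 without line 40 replicate 1). CYP94C2b (LOC_Os12g05440), whose enzyme oxidises the active conjugate, lay at -0.28 (SE 0.21, adjusted p = 0.448). Median scaling put CYP94C2b at -0.14, and leaving out wild type replicate 1 or 2 put it at -0.04 or -0.53.

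**Figure D4:**
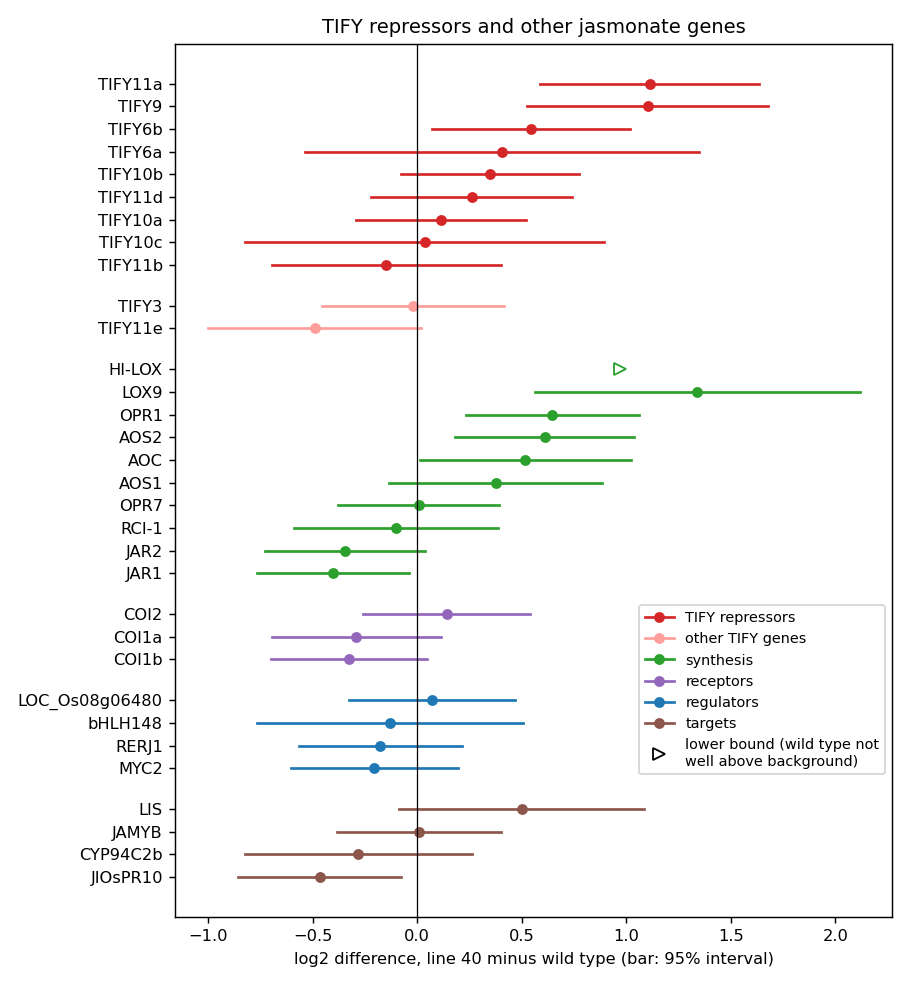
Points give the log2 difference of line 40 minus wild type (horizontal axis) with limma's 95% interval as a bar, for the 9 tested TIFY repressors and 23 other jasmonate genes (vertical axis), coloured by role. HI-LOX, not well above background in the wild type, is an open triangle at its approximate lower bound (1.96-fold), with no interval. The bars of TIFY11a, TIFY9 and TIFY6b lie above 0, as do those of LOX9, OPR1, AOS2 and AOC in synthesis, while those of JAR1 and JIOsPR10 lie below 0. None passed after adjustment over all loci.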

How the data were processed

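RNA labelled with Cy3 was hybridised to a 1-colour Agilent array. The deposited scanner files hold spot intensity from Feature Extraction 10.7.1.1, background-subtracted and detrended, per the file headers, and not normalized between arrays. The value table the authors deposited held the same intensity, with column medians of 61.8, 74.4, 57.1 and 63.3. Flags of the software gave probes well above background and uneven spots.

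From these, log2 signal minus the array's 75th percentile was computed, 1319 control spots and 32 probes with uneven spots were left out, and a locus entered the test where both arrays of 1 group or more had its probe well above background. The brightest probe on the arrays used stood for a locus, so the probe could differ between alternatives. Groups were compared with limma 3.58.1 (lmFit, eBayes, two-sided, R 4.3.3). The fit was also run on simulated loci with known changes. All of these were larger than any repressor difference, so that run does not bear on differences of their size. The files hold no mean spot signal, so normexp (offset 50) used median signals. The offset is added to each signal, which shrinks log2 differences, most for dim loci. A fold marked "at least" sets the bright group's mean against the higher, per array, of the dim probe's own signal and the lowest signal well above background.

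Members, lists, tests and alternatives were chosen with earlier results of these data known. Named were all 10 repressors, HOX24 and, per role of the jasmonate list, the 3 loci with the smallest adjusted p. Other loci of the list are named where they bear on a count or a figure. Names come from hand-written lists. The RefSeq gene table (ASM3414082v1) bore out all 10 repressor names by chromosome and order, and 15 of the 24 other jasmonate names; MYC2, RERJ1, HI-LOX, OPR1, JIOsPR10 and CYP94C2b rest on the list. The array design rests on an older build (IRGSP5), so no coordinates are given. All arrays share 1 slide and 1 scan time.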

Additional observations from a re-analysis of the deposited data

How the results depend on the processing

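Precision is limited by the number of arrays (2 per group), and TIFY11c, not well above background, has only an approximate upper bound. The count of all loci past the threshold (766) was 392 after quantile normalization, 2736 with median scaling, 23 without the filter on dim probes, 504 with loci well above background on all 4 arrays, and 399 to 1802 with an array left out. No repressor passed under any alternative except median scaling, where 2 of 9 did, TIFY11a and TIFY9, beside 7.41% of all tested loci (2.08% with the 75th percentile). Jasmonate list loci past it were 2 with median scaling, 1 after normexp, 1 with the replicate block, and 0 to 1 with an array left out. The replicate numbers were not taken as pairs (correlation of deviations -0.07). The replicate block gave 778 loci and no repressor. The median of the repressors ran from 0.069 to 0.46 with an array left out. Signs turned for TIFY10c (-0.048 after normexp), TIFY11b (0.13 after quantile normalization, 0.16 after cyclic loess), bHLH148 (0.13, 0.18 and, with median scaling, 0.015), RERJ1 (0.027 after cyclic loess), TIFY3 (0.13 with median scaling) and TIFY10a (-0.24 with probes averaged). With an array left out the ranges were -0.30 to 0.37 for TIFY10c, -0.13 to 0.94 for TIFY6a, -0.39 to 0.10 for TIFY11b, -0.090 to 0.24 for COI2, -0.41 to 0.15 for bHLH148 and -0.13 to 0.088 for TIFY3. The cause of these changes was not tested.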
